A study of Chlorocebus sabaeus with 10 samples.

Results

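Transcripts of the mitochondrial genome took between 34.7% and 73.6% of the counts in the liver RNA libraries of 10 vervet monkeys, and the livers were divided by that share. For each animal the counts on rows annotated to the mitochondrial chromosome were divided by the counts on all rows. The 6 animals with a share of 50% or more were HFr1, HFr3, HFr4, Chow1, Chow4 and Chow5, and the 4 animals with a lower share were HFr2, HFr5, Chow2 and Chow3. The members were chosen by these measured shares and not by the labels, so the share itself, and the nuclear count that depends on it, are described here without a test.

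Mitochondrial DNA encodes core subunits of the respiratory chain and the ribosomal and transfer RNAs needed to make them, and every other mitochondrial protein is encoded in the nucleus and imported. Hepatocytes are rich in mitochondria, and the liver uses them for fatty acid oxidation, ketogenesis, the urea cycle and gluconeogenesis. The mitochondrial share of an RNA-Seq library is commonly examined as a measure of the material as well as of the tissue, since it is a proportion and moves when either the mitochondrial or the nuclear RNA moves.

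The animals were female vervets (Chlorocebus aethiops sabaeus) kept on chow, of which 5 were then fed a high fructose (HFr) diet and 5 stayed on chow for 6 weeks before the liver was biopsied. Each animal gave 1 library, prepared from RNA selected with oligo-dT and sequenced as paired reads. Each diet held 3 animals with a high share and 2 with a low share, so that diet and share were balanced and diet could enter the model as a term. Of the 12 hepatocyte markers, all 12 passed the filter on low counts in these libraries, and albumin (ALB) was the nuclear transcript with the most counts. In such bulk tissue, fewer cells of a type and less RNA per cell cannot be told apart.

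In the high share group the mitochondrial share was 57.1% at its lowest (Chow1), 65.0% at its median and 73.6% at its highest (Chow4). In the low share group it was 34.7% in Chow2, 41.8% in HFr2, 43.0% in Chow3 and 44.0% in HFr5. The animals nearest the boundary were thus HFr5 below it and Chow1 above it. The total counts of the groups overlapped, from 2977282 to 4992505 with a high share and from 3097685 to 4663431 with a low share. Counts on nuclear transcripts were 864571 to 1887776 with a high share (median 1110964) and 1802230 to 2657103 with a low share (median 2201692), so that comparisons of nuclear transcripts rest on fewer counts in the high share group. HFr4 was the exception, with more nuclear counts than HFr2. Within the mitochondrial counts the ranges of single transcripts overlapped. COX1, a catalytic subunit of cytochrome c oxidase, took 28.3% to 33.3% of them with a high share and 25.5% to 32.2% with a low share, and for COX3, another subunit, these ranges were 8.54% to 10.04% and 9.49% to 11.7%.

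**Figure D1:**
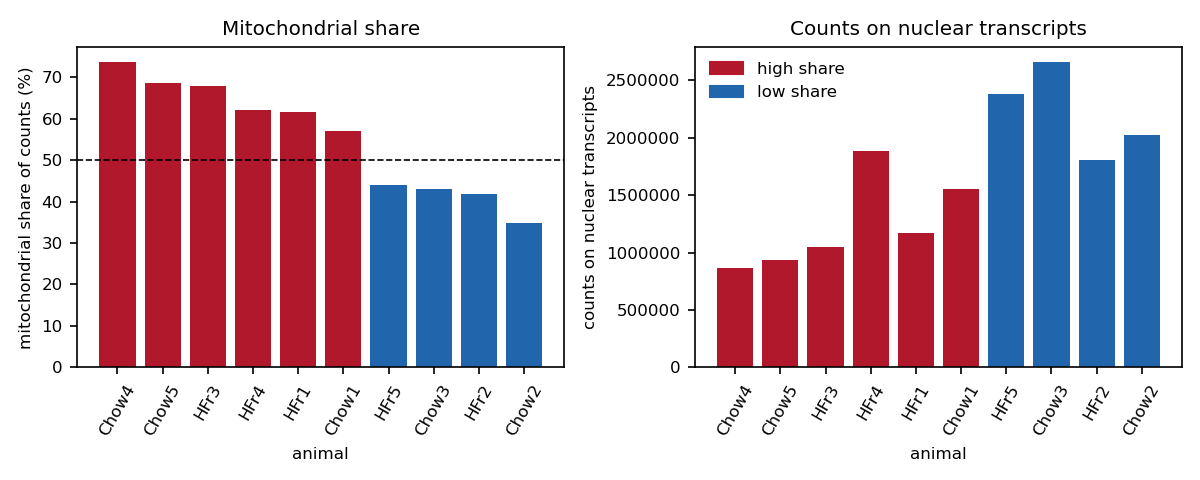
Mitochondrial share of all counts in percent (left) and counts on nuclear transcripts (right), with a bar for each animal in order of its share. The dashed line is the boundary of 50%, and the 4 low share animals (blue) have between 1802230 and 2657103 nuclear counts against 864571 to 1887776 in the 6 high share animals (red).

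The question was how the nuclear transcriptome of livers with a high share differs from that of livers with a low share once mitochondrial rows are set aside. Of 8631 nuclear transcripts tested, 13 were higher and 16 lower in the high share group at an adjusted p under 0.05 (edgeR quasi-likelihood test with diet as a term, Benjamini-Hochberg), which is 0.336% of those tested, 0.151% higher and 0.185% lower. The higher transcripts were mostly short noncoding RNAs, with 4 rows of 5S ribosomal RNA, 2 of 7SL RNA and 1 of U1 small nuclear RNA among the 13. The lower transcripts were all protein coding and included enzymes of drug and toxicant metabolism, secreted proteins and the transcription factor JUN. An unadjusted p under 0.05 was reached by 12.6% of all tested transcripts, 6.55% higher and 6.08% lower, and the groups did not overlap for 3.39% of them, 1.49% higher and 1.90% lower. The median log2 fold change of all tested transcripts was 0.01, with 4405 on the higher side and 4226 on the lower side. These shares of all transcripts are the background for every count of list members below, by side or by unadjusted p. Members of a list can vary together, so a count on 1 side is a description and not a test.

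The calls depended on which animals were included. The 29 had adjusted p between 0.0102 and 0.0468, and when each animal was left out in turn the number called was 0 without HFr5, 1 without HFr1, Chow2, Chow4 or Chow5, 2 without HFr3, 6 without Chow3, 14 without Chow1, 39 without HFr4 and 49 without HFr2. All 29 kept their direction in each of these fits, and all 29 had the same direction in the HFr animals alone and in the chow animals alone. The 29 were selected on these same animals, so a shared direction is largely built in and is no separate support. Calls also depended on the noncoding rows, since a fit to protein-coding transcripts alone, added after the values were seen, left 1 call, DHRS7. The number with an unadjusted p under 0.05 was 800 to 1207 when an animal was left out, against 1090 with all 10. When libraries were scaled by their nuclear counts alone, the median of all transcripts moved to 0.11 and 16 of 24 calls were higher (66.7%), against 13 of 29 (44.8%) after TMM normalization.

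**Figure D2:**
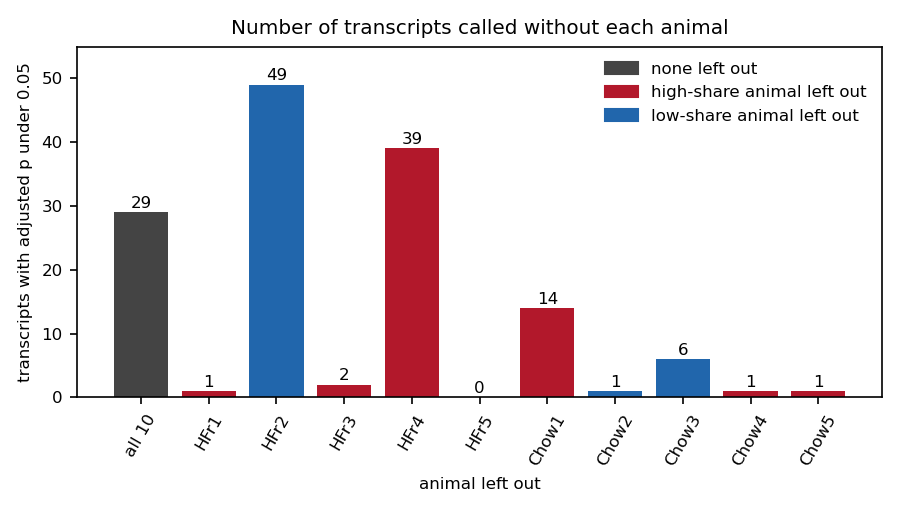
Number of transcripts with an adjusted p under 0.05 in the fit to all 10 animals (grey, 29) and in fits without each animal in turn (red, high share; blue, low share). The number lies between 0 and 49, with the highest values when HFr2 or HFr4 is left out.

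HFr2, Chow3 and HFr4 were most often the animals nearest to the other group. Among the 29 transcripts, HFr2 was the low share animal closest to the high share group in 13, and HFr4 the high share animal closest to the low share group in 11, as was Chow3 on the low side in 11. On the first principal component of the nuclear transcripts, which held 22.7% of the variance, HFr4 (20.6) lay among the low share animals (9.07 to 27.2) and apart from the other high share animals (-45.0 to -10.01).

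The transcript with the smallest p was DHRS7, a short-chain dehydrogenase/reductase (ChlSab1.1 chromosome 24, 37368982 to 37389404). Its normalized count (CPM of the TMM-scaled nuclear library) was 21.3 at its lowest (HFr1), 22.2 at its median and 27.4 at its highest (Chow4) in the high share group. The low share animals had 45.8 in HFr2, 63.5 in Chow2, 63.7 in HFr5 and 78.6 in Chow3. It fell by 1.41 on the log2 scale (SE 0.17, adjusted p = 0.0102) and was lower in all 6 high share animals than in any of the other 4. It stayed past the threshold in 9 of the 10 fits that left out an animal, the exception being the fit without HFr5 (adjusted p = 0.0544).

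Enzymes that act on drugs and other foreign compounds made up 4 of the 16 lower transcripts. CYP2B6 is a cytochrome P450 (ChlSab1.1 chromosome 6, 35393342 to 35418107). The 6 high share animals had normalized counts from 91.4 (Chow5) to 164 (HFr4) with a median of 129, and the low share animals had 192 in HFr2, 286 in Chow3, 499.6 in HFr5 and 515 in Chow2. It fell by 1.51 (SE 0.27, adjusted p = 0.0404), with the groups apart and HFr2 nearest to the high share group. EPHX1, microsomal epoxide hydrolase, hydrolyses reactive epoxides. With a high share the normalized count ran from 114 in Chow5 through a median of 174 to 211 in HFr4. It was 255 in HFr2, 394 in Chow3, 446 in HFr5 and 575 in Chow2 among the animals with a low share. It fell by 1.28 (SE 0.23, adjusted p = 0.0404), again with no overlap. NAT2, an N-acetyltransferase, was at 5.39 to 11.5 with a high share and at 16.4 to 29.5 with a low share, and fell by 1.42 (SE 0.26, adjusted p = 0.0404). MGST1, a glutathione transferase of the endoplasmic reticulum, fell by 1.49 (SE 0.27, adjusted p = 0.0404) but its groups overlapped, since Chow4 (80.9) lay above HFr2 (58.9). The cytochrome P450 genes as a list did not share this direction. Of 11 tested, CYP2B6 was the 1 with an unadjusted p under 0.05, 7 were on the higher side and the median was 0.13, which turned to -0.10 without Chow5.

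Secreted proteins of the hepatocyte formed a second group of lower transcripts. APOC2, the cofactor of lipoprotein lipase, was the most abundant of them. Normalized counts were 437 (HFr3) to 877 (HFr1), median 609.8, in the high share group. They were 1288 in HFr5, 1369.9 in Chow2, 1427 in HFr2 and 1509 in Chow3 in the low share group. It fell by 1.13 (SE 0.21, adjusted p = 0.0419), and no high share animal reached the low share range. LEAP2 is a liver-expressed peptide that blocks the ghrelin receptor. The normalized count was 18.5 at its lowest (Chow5), 24.6 at its median and 37.2 at its highest (HFr1) in the high share group. The low share animals had 45.8 in HFr2, 81.4 in Chow2, 81.6 in HFr5 and 127 in Chow3. It fell by 1.69 (SE 0.27, adjusted p = 0.0323) without overlap. RNASE4, a secreted ribonuclease, fell by 1.44 (SE 0.23, adjusted p = 0.0323), with 15.2 to 31.0 in the high share group and 38.9 to 68.7 in the low share group. CFB, complement factor B, fell by 1.05 (SE 0.19, adjusted p = 0.0404), and CPN2, the regulatory subunit of carboxypeptidase N, fell by 1.08 (SE 0.20, adjusted p = 0.0438), both without overlap.

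The list of 27 secreted plasma proteins lay on the same side in its median. Of its members 25 were on the lower side, 7 had an unadjusted p under 0.05 and all 7 of these were on the lower side (ALB, APOA2, FGA, APOH, GC, APOB and APOC3, 25.9% against 6.08% of all transcripts), none passed the adjusted threshold, and the median was -0.36. ALB is the most abundant plasma protein (ChlSab1.1 chromosome 7, 21876132 to 21891408). The 6 high share animals had normalized counts from 51273 (HFr3) to 78231 (Chow5) with a median of 60957, and the low share animals had 80079.6 in HFr2, 88169.9 in HFr5, 93870.5 in Chow2 and 106065 in Chow3. The groups did not overlap, and the log2 difference was -0.53 (SE 0.24, adjusted p = 0.374). APOB, the structural protein of very low density lipoprotein, chosen after its values were seen, also did not overlap. With a high share the normalized count ran from 1636 in Chow5 through a median of 1939 to 2409 in Chow4. It was 2596 in Chow2, 2788 in HFr2, 3442 in HFr5 and 4235 in Chow3 among the animals with a low share. Its log2 difference was -0.75 (SE 0.20, adjusted p = 0.155).

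The remaining lower transcripts included regulators that respond quickly to signals. JUN encodes a transcription factor of the immediate early response (ChlSab1.1 chromosome 20, 74205542 to 74206547). Normalized counts were 2.66 (HFr1) to 12.9 (Chow1), median 7.38, in the high share group. They were 9.99 in HFr2, 40.1 in HFr5, 55.3 in Chow2 and 67.0 in Chow3 in the low share group. It fell by 2.32 (SE 0.38, adjusted p = 0.0323), and the groups overlapped because HFr2 lay within the high share range. TNFAIP3, an inhibitor of NF-kB signaling, fell by 1.34 (SE 0.26, adjusted p = 0.0438), and RC3H1, which destabilises mRNAs of inflammatory genes, fell by 1.18 (SE 0.23, adjusted p = 0.0468), both without overlap. ENPEP, an aminopeptidase, fell by 1.26 (SE 0.23, adjusted p = 0.0419) and LAMP2, a protein of the lysosomal membrane, fell by 1.26 (SE 0.24, adjusted p = 0.0438), also without overlap.

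**Figure D3:**
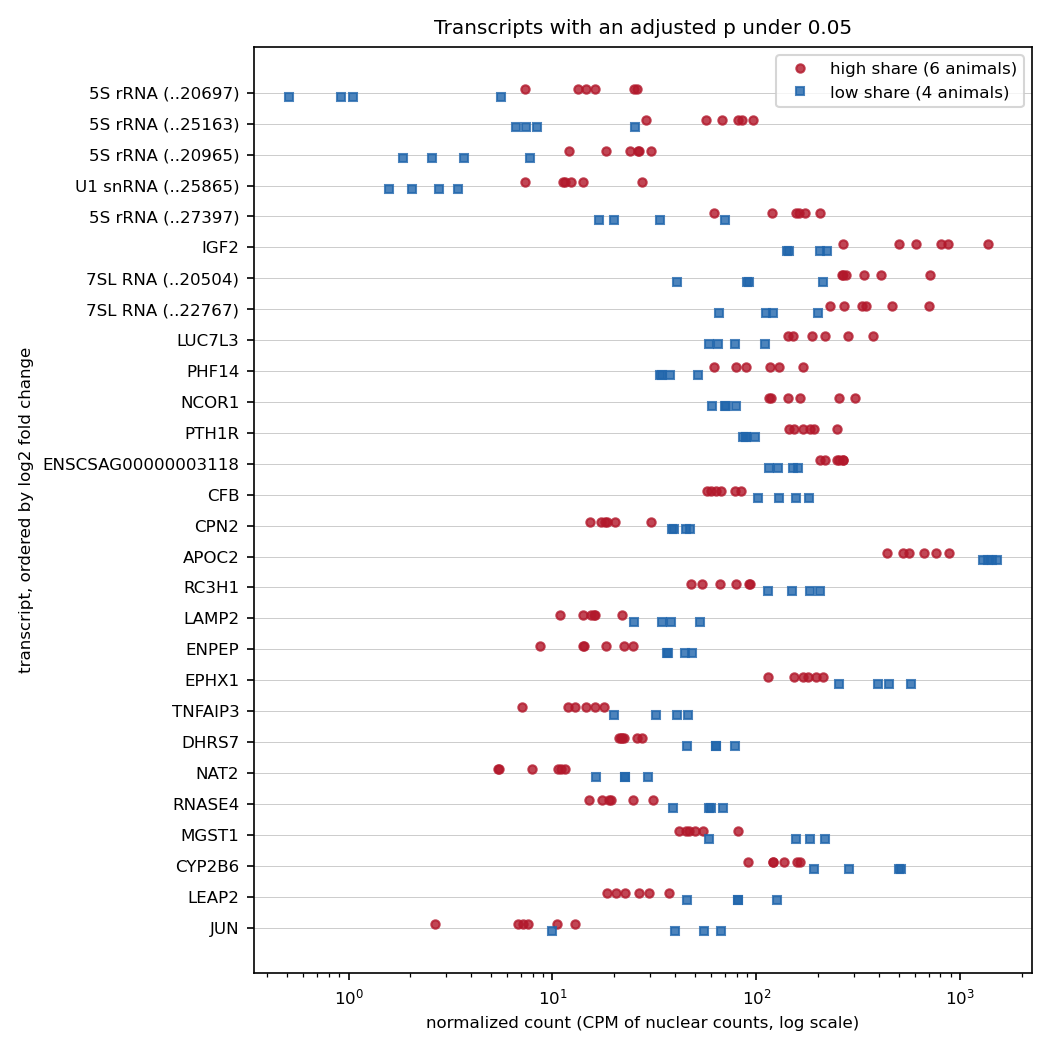
Normalized counts (CPM of nuclear counts, log scale) of 28 of the 29 transcripts with an adjusted p under 0.05 in each animal, ordered by log2 fold change from JUN to a 5S rRNA row. Red circles are the 6 high share animals and blue squares the 4 low share animals, and 25 of these 28 transcripts show no overlap.

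Of 17 immediate early genes tested, 13 were on the lower side and 5 had an unadjusted p under 0.05, all on the lower side (JUN, JUND, EGR1, KLF10 and ZFP36, 29.4% against 6.08%), with JUN the member that passed adjustment and a median of -0.61. ZFP36, which promotes decay of AU-rich mRNAs, overlapped between the groups. Its level in normalized counts was 51.8 at its lowest (HFr4), 110.3 at its median and 235 at its highest (HFr3) in the high share group. The low share animals had 92.6 in HFr2, 278 in Chow2, 308 in HFr5 and 769 in Chow3. Its log2 difference was -1.49 (SE 0.49, adjusted p = 0.235), and Chow3 was the highest animal. EGR1, a zinc finger transcription factor named here after its values were seen, was at 3.57 to 23.2 in the high share group and at 3.16 (HFr2), 66.9 (HFr5), 81.2 (Chow3) and 139.8 (Chow2) in the low share group, so that HFr2 was the lowest of all 10.

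The higher transcripts with the largest fold changes were the 5S and U1 rows. The 7SL rows, at 1.68 and 1.86, came after the protein-coding IGF2 (1.997). 5S and 7SL are RNA polymerase III products, and U1 is a spliceosomal RNA. 5S ribosomal RNA is a component of the large ribosomal subunit, 7SL RNA is the scaffold of the signal recognition particle, and U1 RNA recognises the start of introns. None of them carries the long poly(A) tail by which mRNA is captured. The genome holds many near-identical copies of each, so the row to which a read was assigned is uncertain and the rows of a family are not independent measurements. The 5S row ENSCSAG00000025163 lies at ChlSab1.1 chromosome 25, 1146257 to 1146376. The 6 high share animals had normalized counts from 28.8 (HFr4) to 96.6 (HFr1) with a median of 74.4, and the low share animals had 6.66 in Chow2, 7.38 in HFr5, 8.41 in HFr2 and 25.3 in Chow3. It rose by 2.54 (SE 0.40, adjusted p = 0.0323), and HFr4 and Chow3 were the animals closest to each other. The 3 other tested 5S rows, on chromosomes 1, 14 and 28, rose by 2.998, 2.49 and 2.08, with adjusted p between 0.0323 and 0.0438. The row on chromosome 1 rested on very few counts, between 1 and 13 per low share animal, and that on chromosome 14 on 4 to 18.

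Of the 7SL rows, 55 had a count and 2 passed the filter and were tested, both on chromosome 24. With a high share the normalized count ran from 229 in Chow1 through a median of 337 to 707 in Chow4. It was 65.5 in HFr5, 111 in HFr2, 120.3 in Chow2 and 201 in Chow3 among the animals with a low share. This row (ChlSab1.1 chromosome 24, 26914782 to 26915081) rose by 1.68 (SE 0.30, adjusted p = 0.0404) with no overlap, and the other row by 1.86 (SE 0.34, adjusted p = 0.0404). The tested U1 row rose by 2.40 (SE 0.39, adjusted p = 0.0323). It was at 1.58 to 3.44 in the low share group and at 7.32 to 27.4 in the high share group, on 3 to 8 counts per low share animal.

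Of the 13 tested transcripts annotated as rRNA, snRNA, snoRNA or other small RNA, 12 had an unadjusted p under 0.05 on the higher side against 6.55% of all transcripts, 1 had one on the lower side, and 7 passed adjustment. The classes were looked at after these calls were seen. The U1 row and the 5S row on chromosome 1 passed the filter on low counts only through the high share animals, so their side was partly fixed in advance. For the 5S row on chromosome 14, the snoRNA row and the small RNA row ENSCSAG00000024203, the low share animals alone would not have met the filter either. The same limit thus applies to these rows in part. The U2 small nuclear RNA rows met the filter through Chow3 together with high share animals. The 2 tested U2 small nuclear RNA rows held the same counts in every animal and are not separate measurements. The 12 are thus not 12 independent results. Counts on all rows of these classes, with lincRNA and miRNA rows included, were 0.0850% (HFr4) to 0.197% (Chow4) of nuclear counts in the high share group, with a median of 0.117%. In the low share group they were 0.0226% in HFr5, 0.0310% in Chow2, 0.0365% in HFr2 and 0.0610% in Chow3, and the groups did not overlap. The denominator affects this difference. As CPM of all counts, mitochondrial counts included, the same rows gave 314 to 520 in the high share group and 127 to 347 in the low share group, and Chow3 (347) then lay above HFr3 (314) and HFr4 (321). Nuclear depth differed between the same groups, and its part in this difference was not tested. Among the 17 processed pseudogenes tested, which are copies of spliced mRNAs, 7 had an unadjusted p under 0.05 on the lower side and 0 on the higher side, against 6.08% and 6.55% of all transcripts. Among the 39 tested rows of the annotation's other pseudogene class these counts were 5 and 0.

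**Figure D4:**
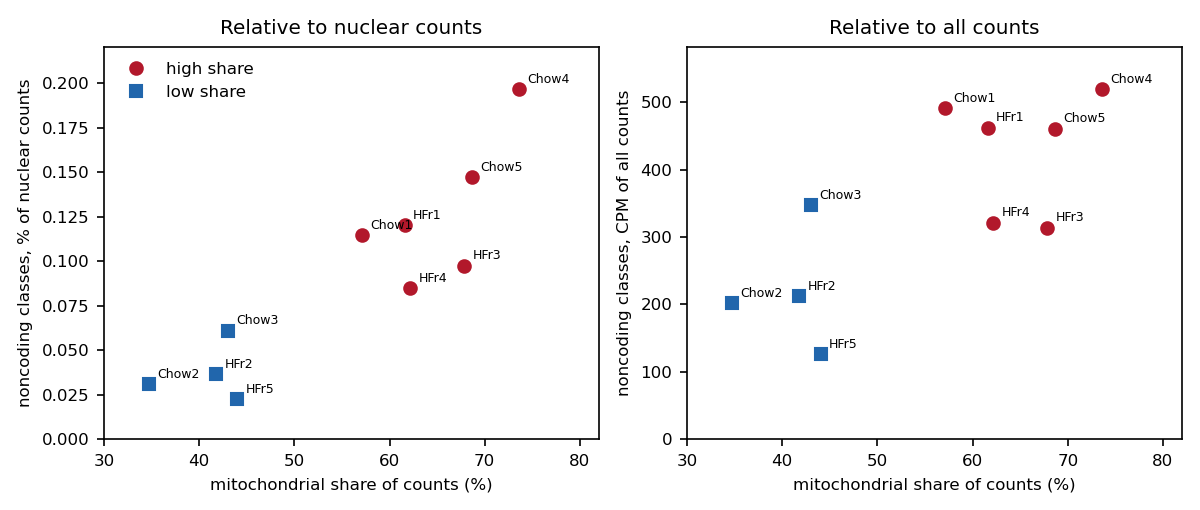
Counts on rRNA, snRNA, snoRNA, miRNA, lincRNA and other small RNA rows against the mitochondrial share in percent, for each animal, as a percent of nuclear counts (left) and as CPM of all counts (right). The groups are apart on the left (0.0850% to 0.197% against 0.0226% to 0.0610%) and overlap on the right, where Chow3 (347) lies above HFr3 and HFr4.

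Protein-coding transcripts that rose numbered 6. LUC7L3, which encodes a protein of the U1 small nuclear ribonucleoprotein, had the smallest p among them (ChlSab1.1 chromosome 16, 42588735 to 42619163). Normalized counts were 144 (Chow1) to 373 (Chow5), median 202, in the high share group. They were 58.9 in HFr2, 65.0 in HFr5, 78.4 in Chow2 and 111 in Chow3 in the low share group. It rose by 1.53 (SE 0.25, adjusted p = 0.0323) with no overlap. IGF2, a growth factor made by the liver, had the largest fold change of these. Its normalized count was 266 at its lowest (HFr4), 704 at its median and 1374 at its highest (Chow5) in the high share group. The low share animals had 142 in Chow3, 145 in Chow2, 206 in HFr2 and 221 in HFr5. It rose by 1.997 (SE 0.38, adjusted p = 0.0438), and it was higher in every high share animal, though HFr4 came close to HFr5. PTH1R, the receptor for parathyroid hormone, rose by 1.01 (SE 0.18, adjusted p = 0.0404), from 85.9 to 98.3 in the low share group to 145 to 247 in the high share group. PHF14, a chromatin protein, rose by 1.42 (SE 0.25, adjusted p = 0.0404) and NCOR1, a corepressor of nuclear receptors, by 1.34 (SE 0.25, adjusted p = 0.0438), both without overlap. The sixth, ENSCSAG00000003118, has no symbol in the table and rose by 0.82 (SE 0.15, adjusted p = 0.0438).

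Splicing factors lay on both sides. Of 27 tested, 4 had an unadjusted p under 0.05 on the higher side (LUC7L3, SF3B1, RBM25 and CLK4) and 4 on the lower side (SRRM2, SRSF6, HNRNPC and TRA2B), 14.8% in each direction, and the median was -0.08. SF3B1, a core subunit of the U2 particle, was at 967 to 1108 with a high share and 724 to 784 with a low share, a log2 difference of 0.45 (SE 0.16, adjusted p = 0.256) without overlap. SRRM2, a scaffold of nuclear speckles, lay on the lower side. The 6 high share animals had normalized counts from 139 (Chow5) to 402 (HFr4) with a median of 265, and the low share animals had 379 in Chow3, 613 in HFr2, 905 in Chow2 and 1006 in HFr5. Its log2 difference was -1.40 (SE 0.31, adjusted p = 0.105), with Chow3 inside the high share range.

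Nuclear genes for mitochondrial proteins relate most directly to the measure that divided the animals, and none in these lists passed the adjusted threshold. The next counts of members higher and lower are those at an unadjusted p under 0.05, to be set against 6.55% and 6.08% of all transcripts. Of 29 nuclear subunits of complex I, 0 were higher and 1, NDUFA13, was lower, with a median of -0.08, which turned to 0.02 when libraries were scaled by nuclear counts alone. Of 13 subunits of complexes II to IV and cytochrome c, 1 was higher (COX7A1) and 5 were lower (COX4I1, COX5A, CYC1, UQCRFS1 and UQCRC1, 38.5%), with a median of -0.12, and of 9 ATP synthase subunits 0 and 2 (ATP5F1C and ATP5MC1), with a median of -0.16 (0.00 without HFr2). COX4I1, a nuclear subunit of cytochrome c oxidase, was at 183 to 281 with a high share and 261 to 318 with a low share, a log2 difference of -0.41 (SE 0.17, adjusted p = 0.345). UQCRC1, a core subunit of complex III chosen after its values were seen, had a log2 difference of -0.61 (SE 0.22, adjusted p = 0.271), and ATP5F1B, the catalytic beta subunit of ATP synthase, one of -0.24 (SE 0.18, adjusted p = 0.631).

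The machinery that copies, transcribes and translates mitochondrial DNA gave a similar picture. For 17 genes of mitochondrial DNA maintenance and transcription, 1 was higher and 0 were lower at an unadjusted p under 0.05, with a median of 0.03 that turned negative under upper quartile scaling (-0.02) and when all rows entered the scaling. The member on the higher side was MTERF2, which binds mitochondrial DNA. With a high share the normalized count ran from 131 in HFr3 through a median of 159.6 to 185 in Chow1. It was 88.9 in HFr2, 93.2 in Chow3, 121 in Chow2 and 121 in HFr5 among the animals with a low share. The groups did not overlap, and its log2 difference was 0.58 (SE 0.17, adjusted p = 0.19). For 16 genes of mitochondrial RNA processing and decay the counts were 0 and 2 (TBRG4 and TRMT10C, median -0.06), for 54 mitochondrial ribosomal proteins 2 (MRPS5 and MRPS26) and 6 (median -0.12), and for 21 genes of import, chaperones and proteases 0 and 3 (TOMM70, HSPD1 and HSPA9, median -0.11). TOMM70, a receptor for imported precursors, did not overlap, at 115 to 149 with a high share and 150.4 to 217 with a low share, a log2 difference of -0.41 (SE 0.17, adjusted p = 0.319).

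Regulators of mitochondrial biogenesis numbered 5 among those tested, of which 0 had an unadjusted p under 0.05, and their median was -0.16. PPARGC1A, the coactivator that drives the program, varied widely within both groups. Normalized counts were 19.4 (HFr4) to 119 (HFr3), median 79.4, in the high share group. They were 20.3 in HFr5, 21.5 in Chow2, 113 in Chow3 and 208 in HFr2 in the low share group. Its log2 difference was -0.26 (SE 0.59, adjusted p = 0.893), and its sign changed with the processing. ESRRA, a nuclear receptor that works with it, had a log2 difference of -0.16 (SE 0.16, adjusted p = 0.729). For 11 genes of fission, fusion and mitophagy the median was 0.00, with 1 higher (BNIP3L) and 0 lower at an unadjusted p under 0.05, and its sign changed with the scaling.

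Among pathways that run in mitochondria, 13 of 14 genes of the tricarboxylic acid cycle were on the lower side, 2 of them at an unadjusted p under 0.05, with a median of -0.19. MDH1 had an unadjusted p under 0.05 but is the cytosolic malate dehydrogenase, so it is not a mitochondrial enzyme of the cycle. It was at 155 to 227 with a high share and 216 to 259 with a low share, a log2 difference of -0.35 (SE 0.16, adjusted p = 0.391). IDH2, the mitochondrial isocitrate dehydrogenase, chosen after its values were seen, had a log2 difference of -0.80 (SE 0.34, adjusted p = 0.348). Of 22 genes of beta-oxidation, 0 were higher and 1, DECR1, was lower at an unadjusted p under 0.05, with a median of -0.07.

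The lists of lipogenesis and cholesterol synthesis genes had medians on the lower side. Of 16 lipogenesis genes 14 were on the lower side, against 4226 of all 8631 transcripts. An unadjusted p under 0.05 was reached by 3 of them (18.8% against 6.08%), and the median was -0.63. ACACB, which makes the malonyl-CoA that limits beta-oxidation, was 1 of these 3 and was chosen after its values were seen. The normalized count was 17.4 at its lowest (Chow5), 27.4 at its median and 42.4 at its highest (HFr4) in the high share group. The low share animals had 40.0 in HFr2, 54.1 in Chow3, 73.3 in HFr5 and 75.8 in Chow2. The log2 difference between the groups was -1.10 (SE 0.24, adjusted p = 0.10), with -0.68 in the HFr animals and -1.57 in the chow animals. GPAM, the first enzyme of triglyceride synthesis, had a log2 difference of -0.78 (SE 0.46, adjusted p = 0.514), with HFr2 (96.2) the lowest of all 10 animals. Of 17 cholesterol synthesis genes 16 were on the lower side and 1, EBP, reached an unadjusted p under 0.05 (5.88%, near the 6.08% of all transcripts). Their median was -0.47, which was -0.06 in the HFr animals and -0.98 in the chow animals.

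Stress and timing genes were also lower in their medians. Of 15 genes of the integrated stress response 6 had an unadjusted p under 0.05, all on the lower side (SHMT2, GDF15, SLC3A2, FGF21, CEBPB and VEGFA, 40.0% against 6.08%), with a median of -0.37. FGF21, a secreted hormone of this response chosen after its values were seen, was spread widely in the low share group. The 6 high share animals had normalized counts from 0.539 (Chow1) to 8.89 (HFr4) with a median of 3.22, and the low share animals had 1.58 in HFr2, 14.3 in Chow2, 54.4 in HFr5 and 98.0 in Chow3. Its log2 difference was -3.16 (SE 0.83, adjusted p = 0.149). GDF15, another secreted stress hormone, likewise chosen, had a log2 difference of -1.51 (SE 0.66, adjusted p = 0.373), which was -0.02 in the HFr animals alone, and Chow3 (167) was far above the rest. Of 14 clock genes 4 were lower (HLF, NFIL3, NPAS2 and ARNTL, 28.6% against 6.08%) and 0 higher at an unadjusted p under 0.05, with a median of -0.35. HLF, a clock-controlled transcription factor, did not overlap (82.6 to 114 against 123 to 149, log2 difference -0.41, SE 0.16, adjusted p = 0.314). Of 11 cytosolic heat shock genes 2, DNAJB1 and HSPB1, were lower at an unadjusted p under 0.05 (18.2% against 6.08%, median -0.19, and 0.07 without Chow3). The chaperone DNAJB1 stood at 1262 in Chow3 and at 34.4 to 49.6 in the other 9 animals, so that its log2 difference of -2.22 (SE 0.87, adjusted p = 0.314) became 0.07 without Chow3. HSPD1, the mitochondrial chaperonin, was also highest in Chow3 (225).

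Other lists had few members past the unadjusted threshold. Scaling by nuclear counts alone changed the sign of the median for translation factors, proteasome subunits, splicing factors, beta-oxidation, mitochondrial RNA processing and cholangiocyte markers. Leaving out an animal also changed it for genes of DNA replication and division without HFr1 or HFr2 (up to 0.39, and 0.13 in the chow animals alone), translation factors without HFr2, HFr4 or Chow2 (up to 0.02), cytoskeletal genes without HFr3 or HFr5 (down to -0.03), beta-oxidation without Chow3 (0.02) and cholangiocyte markers without HFr4 or Chow2 (up to 0.07). The counts higher and lower at an unadjusted p under 0.05 were 0 and 0 of 26 cytosolic ribosomal proteins (median 0.12), 2 (EEF1D and EIF5B) and 0 of 23 translation factors (median -0.03), 1 (NOP58) and 0 of 27 ribosome biogenesis genes (median 0.14), 1 (PSMD1) and 1 (PSMB2) of 28 proteasome subunits (median -0.10), and 0 and 1 (HSP90B1) of 23 genes of the endoplasmic reticulum stress response (median -0.18). EEF1D, an elongation factor subunit, was among the translation factors on the higher side, at 410.5 to 554 against 292 to 353, a log2 difference of 0.60 (SE 0.16, adjusted p = 0.16) without overlap. They were 0 and 1 (VEGFA) of 14 hypoxia genes (median -0.12), 2 (IFI44 and RSAD2) and 0 of 24 interferon-stimulated genes (median 0.19), 0 and 2 (FGA and SERPINA3) of 14 acute phase proteins (median -0.42), 2 (VIM and FLNA) and 3 (PFN1, ACTB and TUBB) of 19 cytoskeletal genes (median 0.06), 0 and 1 (RRM2) of 12 genes of DNA replication and division (median -0.11) and 0 and 1 (FTH1) of 3 metallothioneins and ferritins (median -0.43). FGA, a fibrinogen chain among the acute phase proteins, had a log2 difference of -0.84 (SE 0.32, adjusted p = 0.303). Of 15 periportal genes 0 and 2 (HSD17B13 among them) were higher and lower (median -0.23), and of 10 pericentral genes 1 (OAT) and 0 (median 0.14).

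**Figure D5:**
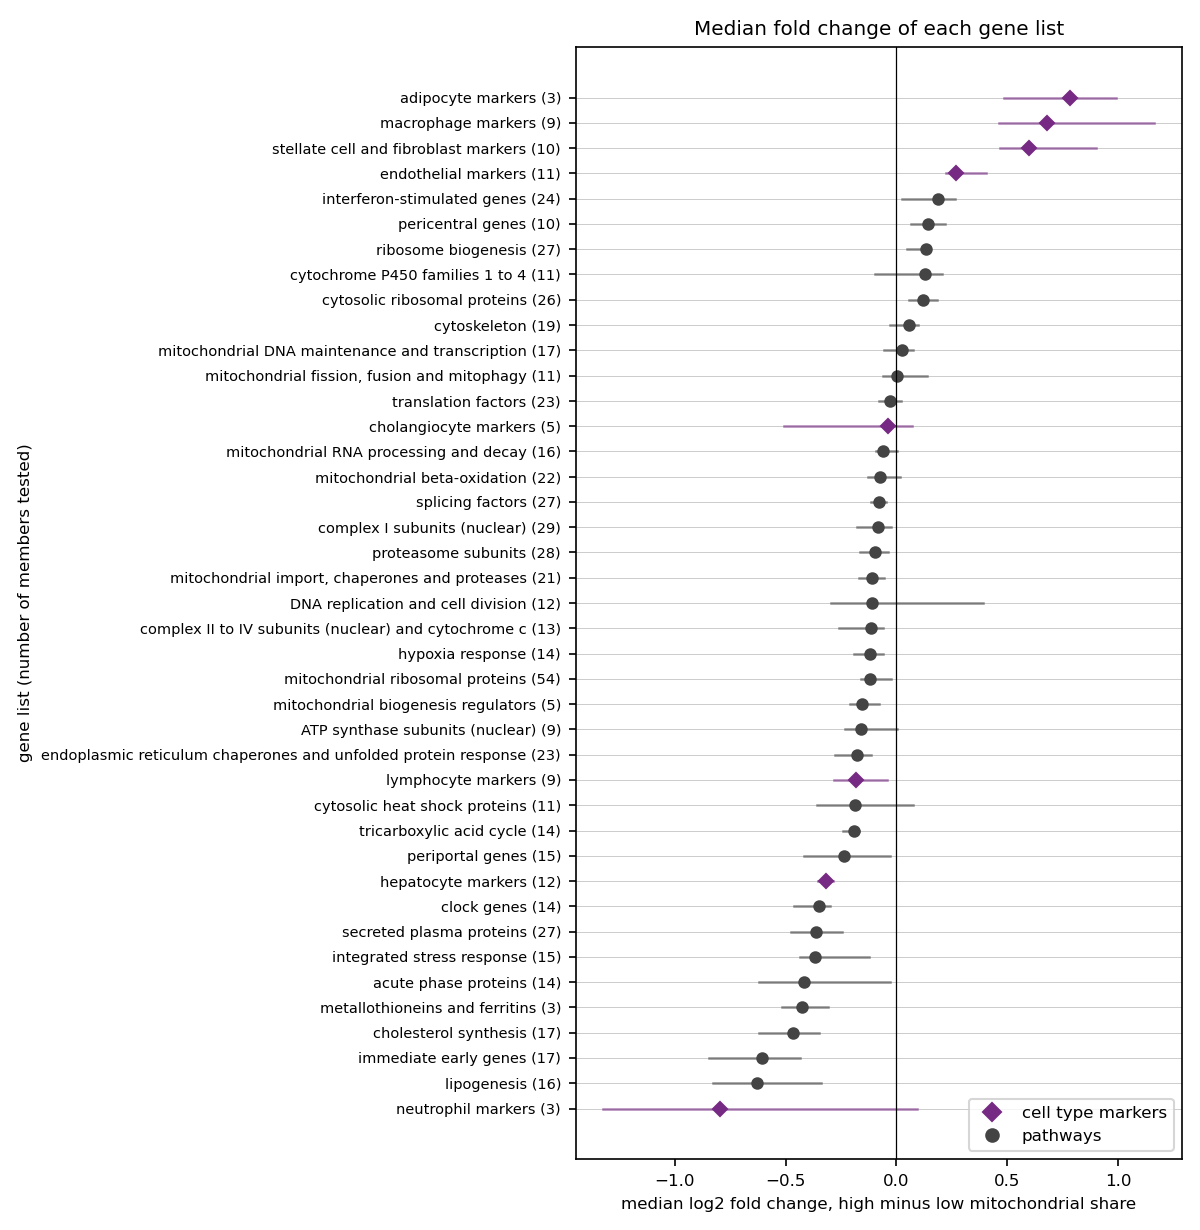
Median log2 fold change (high minus low mitochondrial share) of each gene list with at least 3 members tested, with the number tested in parentheses. Symbols are the medians over all 10 animals, lines run from the lowest to the highest median when an animal is left out, and the medians lie between -0.80 (neutrophil markers) and 0.78 (adipocyte markers).

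The medians of hepatocyte markers lay on the lower side and those of stellate, endothelial and macrophage markers on the higher side. All 12 hepatocyte markers were on the lower side, against 4226 of all 8631 transcripts. Of these, 2, ALB and APOB, had an unadjusted p under 0.05 (16.7% against 6.08%). The median of the markers was -0.32 and lay between -0.36 and -0.28 when an animal was left out. Their summed level was 89880 to 131079 with a high share and 136956 to 172121 with a low share, with no overlap. ALB alone held 51273 to 78231 and 80080 to 106065 of these sums, so their separation largely repeats that of ALB. ALB and APOB are also among the plasma proteins counted above, so the lists are not separate results. SERPINA1, the main serine protease inhibitor of plasma, and TF, transferrin, had log2 differences of -0.37 (SE 0.25, adjusted p = 0.564) and -0.27 (SE 0.21, adjusted p = 0.626).

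Of 10 stellate cell and fibroblast markers all 10 were on the higher side, 6 at an unadjusted p under 0.05 (DCN, COL1A2, COLEC11, RELN, LUM and TAGLN, against 6.55% of all transcripts), with a median of 0.60. Their summed level was 1112 to 2628 with a high share and 682 to 1322 with a low share, while LRAT, which esterifies retinol in stellate cells, was at 0 in all 10 animals. DCN, the matrix proteoglycan decorin, overlapped at HFr2. With a high share the normalized count ran from 336 in Chow4 through a median of 549.8 to 1183 in Chow1. It was 247 in Chow3, 260.2 in Chow2, 267 in HFr5 and 442 in HFr2 among the animals with a low share. Its log2 difference was 1.03 (SE 0.36, adjusted p = 0.249). COL1A2, a chain of type I collagen, had a log2 difference of 0.80 (SE 0.33, adjusted p = 0.337), which was 0.12 in the HFr animals and 1.53 in the chow animals. COLEC11, a collectin of stellate cells, did not overlap (211 to 359 against 114 to 192, log2 difference 0.68, SE 0.21, adjusted p = 0.215).

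All 11 endothelial markers tested were on the higher side, against 4405 of all 8631 transcripts, and 2 had an unadjusted p under 0.05 (STAB1 and ERG, 18.2% against 6.55%). Their median was 0.27 and their summed levels were 1143 to 1310 against 779 to 1058. STAB1, a scavenger receptor of sinusoidal endothelium, had a log2 difference of 0.57 (SE 0.19, adjusted p = 0.239). Of 9 macrophage markers 8 were on the higher side and 0 had an unadjusted p under 0.05 (median 0.68), with summed levels of 841 to 1331 against 806 to 1041. C1QB and CD5L, both made by Kupffer cells, had log2 differences of 0.78 (SE 0.39, adjusted p = 0.428) and 0.73 (SE 0.39, adjusted p = 0.469). Of 9 lymphocyte markers 1 was higher and 1, CD4, lower at an unadjusted p under 0.05 (median -0.18, on the higher side after thinning to equal depth), and the higher of these was JCHAIN, of antibody-secreting cells, with a log2 difference of 1.36 (SE 0.56, adjusted p = 0.333). Of 2 red cell markers 1 was higher (median 0.97), which was HBB with 1.01 (SE 0.38, adjusted p = 0.291). Of 5 cholangiocyte markers 1, SOX9, was lower (median -0.04), of 3 neutrophil markers 0 (median -0.80, and 0.09 without Chow3), and of 3 adipocyte markers 1 was higher (median 0.78), PLIN1 of the lipid droplet, with 1.04 (SE 0.38, adjusted p = 0.271), while ADIPOQ and LEP were at 0 in all 10 animals. Of the skeletal muscle markers 1, DES, passed the filter, with a log2 difference of 1.64 (SE 0.91, adjusted p = 0.489), and CKM and MB, with MYH2 and MYH7, were at 0 in all 10 animals. These marker levels moved with the lower plasma proteins and enzymes described above, and their part in those differences was not tested.

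The composition of the nuclear counts was compared by a pair of single values. The 10 nuclear transcripts with the highest mean included ALB, APOA1, SERPINA1, TF and TTR of the hepatocyte markers, so this value is not separate from that list. They took 16.2% (Chow1), 19.5% (median) and 22.1% (HFr1) of nuclear counts in the high share group. In the low share group they took 20.8% in HFr2, 22.3% in Chow2, 22.8% in Chow3 and 23.6% in HFr5. The means were 19.4% ± 1.89 (SD, n = 6) and 22.4% ± 1.14 (SD, n = 4), a difference of -3.01 percentage points (two-sided exact permutation test, p = 0.019, where 210 assignments are possible and the smallest two-sided p is 0.00952). HFr1 was the high share animal within the low share range. The number of nuclear transcripts with a count, after every library was thinned to between 863774 and 864830 nuclear counts, was 11944 to 12667 with a high share (median 12089) and 11943 to 12383 with a low share (two-sided exact permutation test, p = 0.962, difference in means 12.6). Without thinning the high share group had 803 fewer on average.

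Whether the difference between high and low share depended on diet was tested with an interaction term. No transcript passed the adjusted threshold with edgeR (0 of 8631, 0%, smallest adjusted p = 0.999), and 337 transcripts, 3.90%, had an unadjusted p under 0.05. No other tool was run for this term. With 3 and 2 animals per diet the fits within a diet called 1 transcript in the HFr animals and 8 in the chow animals, of which 0 and 3 were among the 29.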

How the data were processed

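RNA-Seq of liver from 10 vervet monkeys was analysed, with a library for each animal. The authors selected polyadenylated RNA with oligo-dT, made stranded libraries, sequenced paired reads on a HiSeq, processed them with CASAVA 1.8 and FastQC, aligned them to ChlSab1.1 with STAR 2.5.3a and estimated counts per Ensembl transcript by expectation-maximization in Partek Flow. The deposited estimated counts are not normalized, and 97.9% of the values lay within 1e-06 of a whole number. A second deposited table of TMM-normalized values was not used. Total counts were 2977282 to 4992505 and nuclear counts 864571 to 2657103 per animal, which limits what can be seen of transcripts with low counts.

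Counts were rounded, and the 37 mitochondrial rows were removed from the library sizes. Of 28041 nuclear transcripts, 16105 had a count and 8631 passed edgeR's filterByExpr (minimum count 10, minimum total 15). TMM factors were computed over the nuclear rows, a model with terms for diet and share group was fitted, and the share group was tested with the quasi-likelihood F-test of edgeR. P-values were adjusted by Benjamini-Hochberg over all tested transcripts at 0.05. The standard error is the log2 fold change divided by the square root of F. A difference in a single value was tested by a two-sided exact permutation test. Fits were run in R 4.3.3 with edgeR 4.0.16, and alternatives with limma 3.58.1 or DESeq2 1.42.0. The edgeR step was checked on simulated counts. Coordinates are those of the deposited table.

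The groups and the 43 gene lists were chosen with earlier results of these data known. The genes named are the 10 in each direction with the smallest p among those whose groups do not overlap and, of each list, up to 6 members with an adjusted p under 0.05 and the 4 with the highest mean normalized count. Other called transcripts, the noncoding classes, members of a list named for an unadjusted p under 0.05 and the genes so marked in the text were chosen after their values were seen. In the lists a gene is represented by its transcript with the highest mean, while called transcripts are reported row by row. Alternatives covered the filter, the normalization, the tool, thinning, rounding and counts summed by gene. They also covered the diet term, the share as a number, a replicate block, each diet alone and each animal left out. The values of 4 genes are not reported here, although the genes are counted in the totals.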

Additional observations from a re-analysis of the deposited data

Results flagged for a closer look

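Single animals were compared with the rest of their share group for 144 sets of values, namely each named transcript and each library measure in each group, and 16 of them held an animal whose distance from its nearest neighbour exceeded the 95% critical value of Dixon's ratio. Chance flags about 1 in 20 groups.

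Chow3 stood apart in the low share group in 6 of these sets. Its normalized count of the chaperone DNAJB1 was 1262, against 37.4 to 47.3 in the other low share animals, and that of GDF15 was 167, against 9.47 to 27.7. TOMM70 was at 217 in Chow3 against 150.4 to 155 in the others, and MDH1 at 259 against 216 to 222. The 5S rows ENSCSAG00000025163 and ENSCSAG00000020697 were at 25.3 and 5.59 in Chow3, against highest values of 8.41 and 1.05 in the others.

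Chow4 stood apart in the high share group in 4 sets. Its U1 row ENSCSAG00000025865 was at 27.4 against 7.32 to 14.1 in the others, its 7SL row ENSCSAG00000020504 at 714 against 264 to 409, its MGST1 at 80.9 against 41.6 to 54.5, and its HSPD1 at 33.3 against 55.4 to 67.8. Chow4 had the highest mitochondrial share of all animals.

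HFr4 stood apart from the other high share animals with CPN2 at 30.3 against 15.2 to 20.2 and IDH2 at 76.4 against 21.8 to 42.1. Chow1 did so with SERPINA1 at 6843 against 11032 to 13214, and with 12667 nuclear transcripts detected at equal depth against 11944 to 12130. In the low share group HFr2 stood apart with DCN at 442 against 247 to 267. Chow5 stood apart in the high share group with DES at 81.6 against 1.57 to 20.5.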

How the results depend on the processing

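The number of transcripts called was 29, and every called transcript kept its direction under every alternative that tested it. The alternatives use the animals on which the 29 were selected, so this direction is largely built in. The number called was 368 without a filter beyond a count in 1 animal, 125 with DESeq2, 15 with limma on log2(CPM + 1), 1 with protein-coding transcripts alone (an alternative chosen after seeing the data), 1 in the HFr animals alone, 8 in the chow animals alone and 0 with a replicate block. Leaving out each animal gave 0 to 49. Of the 29, 29 were among the calls without a filter and with DESeq2 and 15 with limma. The cause was not tested for these, although the fits within a diet and without an animal hold fewer animals. With nuclear library size alone, 24 were called and 66.7% of these were higher (44.8% in the reported fit), the median of all transcripts moving to 0.11. With the mitochondrial percent as a number, 43 were called, of which 18 were among the 29. The residuals of same-numbered HFr and chow animals correlated at -0.16, -0.30, 0.27, 0.04 and 0.09. Whether the replicate numbers pair the samples was not tested.

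The interaction gave 0 to 2 calls when an animal was left out, with 2 each without Chow2 and without Chow3. The difference in detected transcripts (12.6) was -803 without thinning. That value depends on the nuclear count, which is tied to the grouping, and is given without a test. The difference was -3.08 with 5 counts in place of 1, and -87.8 to 89.3 when an animal was left out, with the sign changed without HFr5, Chow1 or Chow3. The difference in the 10 highest transcripts was -3.55 to -2.37 percentage points when an animal was left out, which was chosen after seeing the data. PPARGC1A changed sign with limma (0.16), voom (0.60), the block (1.05), the chow animals alone (0.0122), without HFr2 (0.63) and without Chow3 (0.12), and lay between -0.61 and 0.63 when an animal was left out. DNAJB1 lay between -2.86 and 0.0739 when an animal was left out, the latter without Chow3, and was at -3.87 in the chow animals alone. For single genes over all alternatives, 1511 values kept their direction and side of the threshold, 371 became weaker, 31 stronger and 7 reversed. The lower nuclear depth of the high share group limits what can be said of transcripts with few counts.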
